A study of Zea mays with 20 samples.

Results

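In the ear internode of 5 maize recombinant inbred lines, 52 of 17555 maize probe sets had clear signal in some lines and next to none in the others. A probe set is the group of short probes on the array that reports 1 transcript. A probe set was taken when each line had either all 4 of its arrays below 3 or all 4 above 6 on the log2 scale, with at least 1 line of each kind. The 52 were thus chosen by their log2 values on these same 20 arrays, and the differences between lines are given below as a description with no test. By the same limits, 7909 probe sets had signal on all 20 arrays and 5065 on none. The 52 make up 0.296% of the maize probe sets.

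The ear internode is the stem segment that bears the ear. All lines come from the F288 x F271 progeny and differ in the alleles they hold at 4 loci known for an effect on lignin and on how easily the cell wall is digested. An unfavorable allele is present at bin 6.06 in RIL39 and RIL71 and at bin 9.02 in RIL118, while RIL99 and RIL54 are favorable throughout. The plants grew in an irrigated field without further treatment, and each line was sampled at early silking and at emerging tassel with 2 arrays per line and stage, 20 arrays in all. Each locus class is 1 or 2 lines, so a difference between classes cannot be told apart from other differences between those lines. Nothing in the labels says whether the 2 arrays came from separate plants, so p-values measure only the spread between arrays.

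A recombinant inbred line is bred by repeated selfing, which leaves it nearly fixed for 1 parent's allele at each locus. A locus at which the parents differ thus splits the lines into those with the allele of one parent and those with the allele of the other. Maize parents are known to differ in gene sequence, in expression and in which genes they carry. An array value near the floor says that the short probes bound little RNA, and it does not say which of these holds. In RNA from whole tissue, fewer cells of a type and less RNA per cell cannot be told apart either.

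The arrays were alike in range. Between 53.15% and 54.08% of the maize probe sets lay above 6 on each array and between 34.82% and 36.02% lay below 3. The lowest correlation between replicates was 0.9802, for RIL118 at emerging tassel, whose highest correlation with an array of another group was 0.982. The highest was 0.9981, for RIL39 at the same stage. Of 7 probe sets for genes of secondary wall and lignin, which mark the maturing stem, 5 were above 6 on all 20 arrays. Of 9 probe sets for kernel genes 7 were below 3 on all 20, and so were both probe sets for pollen genes. Leaf photosynthesis genes were also read, with 10 of 13 probe sets above 6 on all arrays, and so was 1 of 3 for meristem genes and 1 of 8 for epidermis genes. None of these lists, nor those of defense, stress enzymes and ribosomal proteins, held any of the 52 probe sets. The lists are of annotated genes, and only 2 of the 52 have a listed gene. The absence therefore says nothing of the members without one.

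The difference between lines with and without the signal ran from 4.26 to 9.47 log2 units among the 52, with a median of 5.89. Values lay between 1.90 and 12.39. In the lines without signal the SD over arrays had a median of 0.035 and did not exceed 0.40, so these lines lay at the floor of the array. The members nearest the limit of 3 were Zm.17669.1.S1_at and Zm.15843.1.S1_at, each with a highest value of 2.97 in the lines without signal, and the member nearest the limit of 6 was Zm.18031.1.A1_at, with a lowest value of 6.06 in its line with signal. The narrowest gap between the 2 sets of lines was 3.39, at Zm.15668.1.S1_at (lowest array 6.11 in lines with signal, highest 2.71 in the line without). Another 36 probe sets missed the rule through a single array. The 3 closest were Zm.7178.1.S1_at (3.01 on RIL118 early silking replicate 2), Zm.7637.1.A1_a_at (5.98 on RIL54 emerging tassel replicate 2) and Zm.8278.1.A1_at (3.02 on RIL99 emerging tassel replicate 2). Of the 36, 15 were kept out by RIL118 emerging tassel replicate 2 alone.

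**Figure D1:**
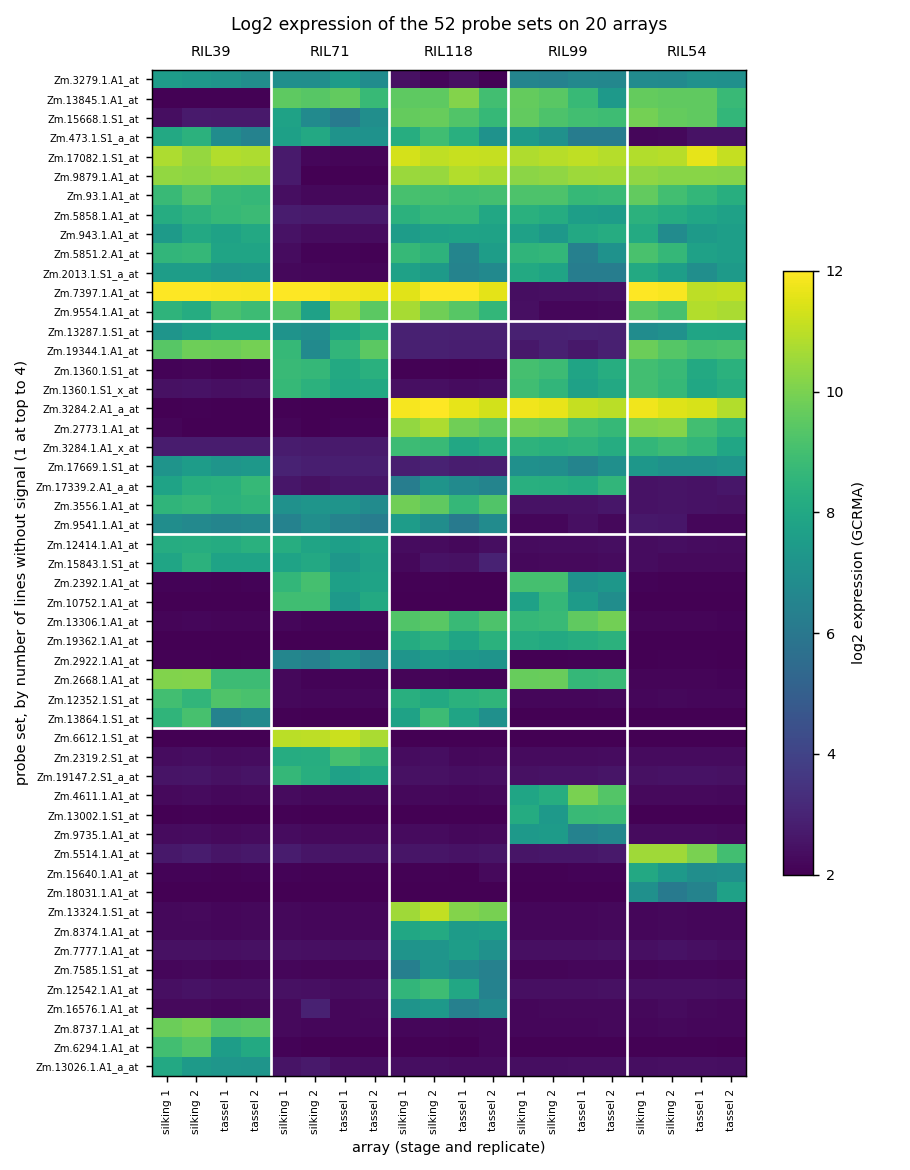
Log2 expression of the 52 probe sets (rows, ordered from 1 line without signal at the top to 4 at the bottom) on the 20 arrays (columns, by line, with early silking left of emerging tassel). In every row the 4 arrays of a line share a state, above 6 or below 3, as the rule requires, and the states change only at the white lines between the 5 lines.

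Only 2 of the 52 have a gene in the platform annotation, which lists exactly 1 gene for 1452 of the maize probe sets. One of them, Zm.93.1.A1_at, reports tbp1 (gene 542240, chromosome 1 in the RefSeq assembly Zm-B73-REFERENCE-NAM-5.0), a TATA-binding protein that sits at the core promoter and helps to start transcription. It lacked signal in RIL71. On the 16 arrays of the other 4 lines tbp1 had a lowest value of 8.27, a median of 8.95 and a highest of 9.62. In RIL71 it read 2.37 and 2.23 at early silking and 2.21 and 2.21 at emerging tassel. The mean was thus 8.94 ± 0.32 (SD, n = 16) in the lines with signal and 2.26 ± 0.08 (SD, n = 4) in RIL71, and the 2 sets of arrays lay 5.90 apart at their nearest. No further probe set is listed for tbp1.

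The annotation lists a probe set for tbp2 as well, the second TATA-binding protein gene (gene 542241, chromosome 5), which was looked up after the tbp1 values were seen. The tbp2 probe set Zm.208.1.S1_at averaged 7.81 ± 0.38 in RIL71 (SD, n = 4) and 7.74 ± 0.49 in the other lines (SD, n = 16). The RIL71 values of 7.48 to 8.27 lay inside the range of 7.15 to 8.86 in the other lines. RIL71 therefore had TATA-binding protein signal at tbp2 and none at the tbp1 probe set.

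The other named member is Zm.473.1.S1_a_at, for LOC542345 (gene 542345, chromosome 8), whose function the tables used here do not give. It lacked signal in RIL54, with 2.18 and 2.22 at early silking and 2.47 and 2.48 at emerging tassel. In the 4 lines with signal it ran from 6.19 to 8.95, with a median of 7.31. Its level differed among those lines, from 8.15 ± 0.77 in RIL118 to 6.74 ± 0.64 in RIL99 (SD, n = 4 each), and the arrays of these lines overlapped. Over all maize probe sets with a chromosome, 225 lie on chromosome 1 and 108 on chromosome 8, so the 2 named members say nothing of where the 52 lie in the genome.

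The other 50 members are known here by probe set ID alone. In these IDs the number after Zm is the sequence cluster from which the probes were designed, and the letter S or A gives the strand of the source sequence. The 52 come from 50 clusters. Of the 52, 44 are plain probe sets (84.62%), 6 carry the suffix a (11.54%), 2 the suffix x (3.846%) and none the suffix s, which marks probes shared by several transcripts. Among the 7909 probe sets with signal on all arrays the shares were 83.97%, 9.938%, 4.033% and 2.061%. The strand letter was A in 67.31% of the members and in 63.52% of the probe sets with signal on all arrays.

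Of the 52, RIL71 lacked 32, RIL54 29, RIL39 27, RIL99 26 and RIL118 23. The low count of RIL118 rests on 1 array. Without RIL118 emerging tassel replicate 2 the rule takes 67 probe sets, of which RIL118, RIL99 and RIL54 lack 36 each, RIL39 35 and RIL71 34. By number of lines without signal, 13 probe sets were missing in 1 line, 11 in 2, 10 in 3 and 18 in 4. In 31 of the 52, 1 line therefore stood against the other 4. The lone line had the signal in 18 of these and lacked it in 13. The pair of lines that differed at the fewest of the 52 was RIL99 and RIL54, at 17, and the pair that differed at the most was RIL71 and RIL118, at 33. RIL39 and RIL71, which share the bin 6.06 allele, differed at 25.

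**Figure D2:**
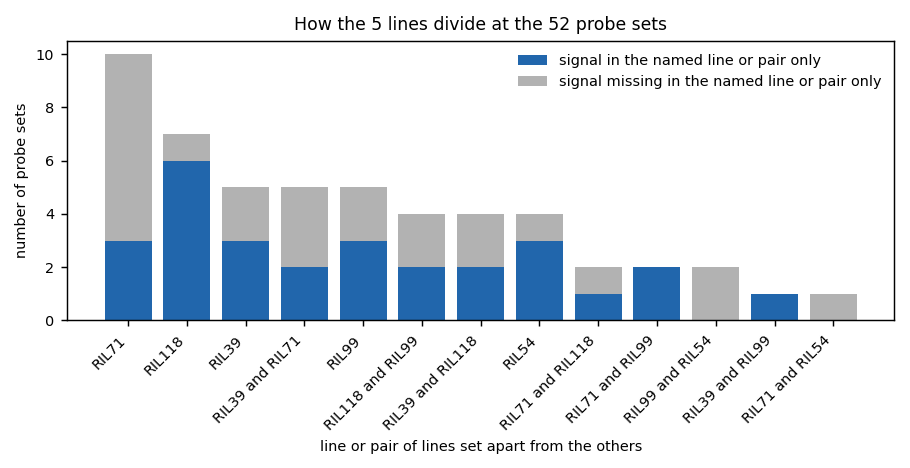
Number of the 52 probe sets (vertical axis) for each line or pair of lines that was set apart from the others (horizontal axis), with signal only there in blue and signal missing only there in grey. RIL71 stood alone at 10 probe sets and RIL118 at 7, and 13 of the 15 possible divisions of 5 lines were seen.

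RIL71 stood alone at 10 probe sets, and it was the line without signal at 7 of them. The widest gap of the 7 was at Zm.17082.1.S1_at, where the other lines ran from 10.44 to 11.62 and RIL71 read 2.73 and 2.16 at early silking and 2.15 and 2.15 at emerging tassel. The 3 probe sets with signal in RIL71 only were led by Zm.6612.1.S1_at, at 10.98 ± 0.19 in RIL71 (SD, n = 4) and 1.98 ± 0.01 in the other lines (SD, n = 16). RIL118 was the line with signal at 6 of its 7 probe sets, led by Zm.13324.1.S1_at, at 10.44 ± 0.50 in RIL118 and 2.19 ± 0.02 in the others. The 1 probe set missing in RIL118 only, Zm.3279.1.A1_at, ran from 6.44 to 7.53 in the other lines and from 2.07 to 2.44 in RIL118. Single arrays moved these counts. Without RIL118 emerging tassel replicate 2, 3 probe sets were missing in RIL118 only and 7 had signal there only, and those with signal in RIL71 only were 6. Without RIL118 early silking replicate 2, 2 were missing in RIL118 only.

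RIL39, RIL99 and RIL54 each were the line with signal at 3 probe sets, a count that was 5 for RIL39 without RIL71 early silking replicate 1. Among these Zm.8737.1.A1_at ran from 9.34 to 9.95 in RIL39 and no higher than 2.24 elsewhere. Zm.4611.1.A1_at ran from 7.87 to 9.98 in RIL99 and no higher than 2.30 elsewhere. Zm.5514.1.A1_at ran from 8.99 to 10.58 in RIL54 and no higher than 2.78 elsewhere. Missing in 1 of these lines were 2 probe sets in RIL39, 2 in RIL99 and 1 in RIL54. The widest gaps were those of Zm.7397.1.A1_at, with a median of 11.94 in the other lines and values of 2.37 to 2.44 in RIL99, and of Zm.13845.1.A1_at, with 7.36 to 10.14 in the other lines and 2.04 to 2.07 in RIL39.

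The divisions that follow the loci are those of RIL118, the line with the unfavorable bin 9.02 allele, at the 7 probe sets above, and of the 2 pairs below. RIL39 and RIL71, which share the unfavorable bin 6.06 allele, were set apart from the other 3 at 5 probe sets, with signal in both at 2 and missing in both at 3. Zm.12414.1.A1_at, with signal in the pair, averaged 8.06 ± 0.25 in RIL39 and RIL71 (SD, n = 8) and 2.32 ± 0.04 in the other lines (SD, n = 12). Zm.3284.2.A1_a_at, missing in the pair, had the widest gap of all 52. It ran from 10.83 to 12.02 in RIL118, RIL99 and RIL54 and reached at most 2.04 in RIL39 and RIL71. RIL99 and RIL54 were set apart from the 3 lines with an unfavorable allele at 2 probe sets, both missing in RIL99 and RIL54. The wider of them, Zm.3556.1.A1_at, had a median of 8.53 in the 3 lines and of 2.49 in RIL99 and RIL54. The remaining 14 probe sets with 2 lines against 3 followed other pairs, at most 4 for a pair.

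Pairs that do not follow the loci included RIL118 and RIL99, set apart at 4 probe sets, and RIL39 and RIL118, also at 4. With signal in RIL118 and RIL99 only, Zm.13306.1.A1_at ran from 8.66 to 9.88 there and from 2.10 to 2.17 in the other lines. With signal in all lines but these, Zm.13287.1.S1_at ran from 6.84 to 8.44, against 2.89 to 2.94 in RIL118 and RIL99. With signal in RIL39 and RIL118 only, Zm.12352.1.S1_at ran from 8.06 to 9.25, against 2.16 to 2.23 elsewhere. Zm.1360.1.S1_at, missing in RIL39 and RIL118, ran from 7.85 to 9.04 in the lines with signal and from 2.02 to 2.12 in those 2. The other divisions held 1 or 2 probe sets each. They were led by Zm.2392.1.A1_at (signal in RIL71 and RIL99), Zm.2668.1.A1_at (signal in RIL39 and RIL99), Zm.2922.1.A1_at (signal in RIL71 and RIL118), Zm.17669.1.S1_at (missing in RIL71 and RIL118) and Zm.17339.2.A1_a_at (missing in RIL71 and RIL54).

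Among the lines that had the signal, levels were mostly close. For the 34 members with signal in 2 or more lines, the line means spanned a median of 0.43 log2 units, and 6 spanned more than 1. The widest was Zm.15668.1.S1_at, missing in RIL39, whose mean was 6.91 in RIL71 and between 9.17 and 9.44 in RIL118, RIL99 and RIL54. Zm.3556.1.A1_at averaged 7.08 in RIL71, 8.54 in RIL39 and 9.32 in RIL118. Zm.17339.2.A1_a_at averaged 6.67 in RIL118 against 8.29 in RIL39 and 8.33 in RIL99. In these members the line means thus also differed among the lines with signal, a difference that was not tested.

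A second probe set from the same cluster gives a reading of related sequence, which the rule did not use unless that probe set is itself a member. Since it comes from the same arrays and the same line contrast, it is described and not tested. Of the 52 members, 16 have at least 1 other probe set in their cluster and 36 have none. Of these 48 other probe sets, 24 belong to a single large cluster, Zm.5851, and 24 to 13 clusters. Of those 24, 10 were below 3 on all arrays, 6 were above 6 on all arrays, 7 followed the member with no overlap between the 2 sets of lines, and 1 did neither. Zm.13845.2.A1_a_at, counted among the 6, had no overlap either. Of the 7, 4 are members themselves, 2 in cluster Zm.1360 and 2 in cluster Zm.3284.

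In 6 of the 16 members another probe set of the cluster was above 6 on all 20 arrays, thus also in the lines without the member's signal. Over the series 7909 of 17555 maize probe sets were above 6 on all arrays, so no excess is read from the 6. Whether probe sets of a cluster report the same transcript was not tested. The nearest match is Zm.17082, where both probe sets were designed to the same sequence and strand. Its member was missing in RIL71, but Zm.17082.1.S1_s_at averaged 10.67 in the other lines and 10.54 in RIL71, where it ran from 10.30 to 10.76. The same held for Zm.4611. Its member had signal in RIL99 only, whereas Zm.4611.1.A1_s_at averaged 8.06 in RIL99 and 7.83 in the other lines, with a range of 6.82 to 9.09 in the other lines. In both clusters the second probe set carries the suffix s, so its signal can come from several transcripts.

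The other 4 cases rest on another sequence of the cluster. Zm.2319.2.S1_at had signal in RIL71 only, while Zm.2319.1.S1_at, which reports gene 541935 on chromosome 2, averaged 8.36 in RIL71 and 8.18 in the other lines. Zm.13845.1.A1_at was missing in RIL39, where Zm.13845.2.A1_at averaged 8.41 against 8.43 in the lines with signal. A further probe set of that sequence, Zm.13845.2.A1_a_at, was lower in RIL39, at 8.90 in the lines with signal and 7.04 in RIL39, and its ranges did not overlap (7.84 to 9.61 and 6.45 to 7.43). The share of all maize probe sets that set RIL39 apart in this way was not determined, so nothing is read from it. Zm.9879.1.A1_at was missing in RIL71, where Zm.9879.2.S1_at, of the other strand, averaged 13.09 against 12.58 in the lines with signal. Zm.5851.2.A1_at was missing in RIL71 too, and 5 of the 24 other probe sets of its cluster were above 6 on all arrays, 11 were below 3 on all arrays and 8 varied. Among the 5, Zm.5851.6.S1_x_at lay close to the limit, at 6.03 to 6.80.

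**Figure D3:**
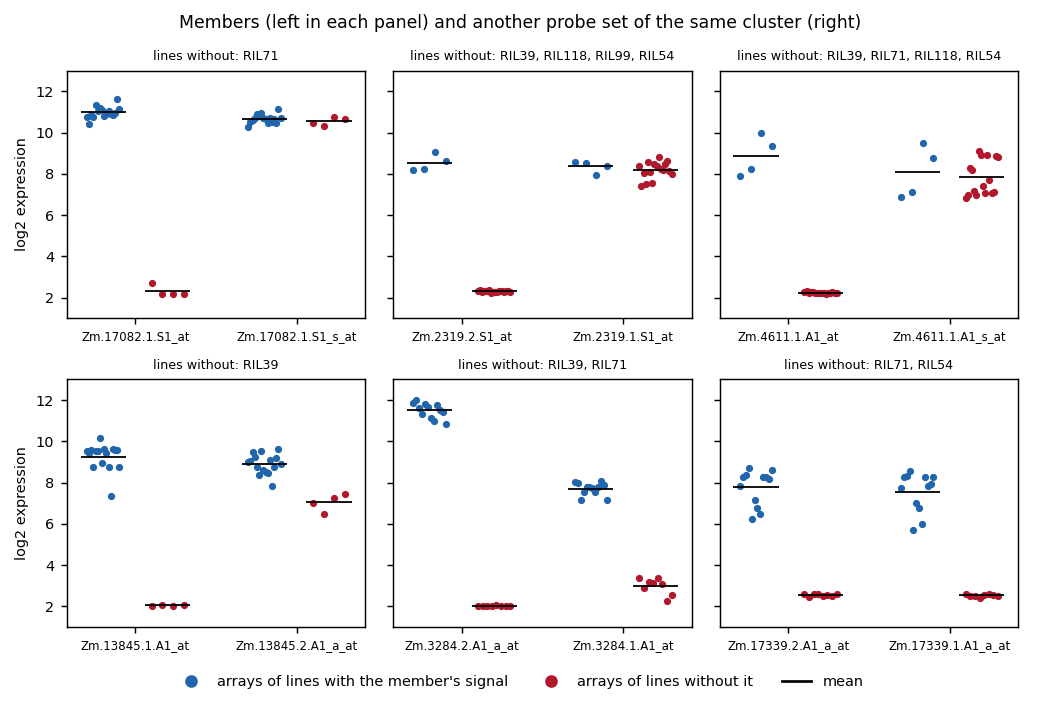
Log2 expression (vertical axis) of 6 members (left in each panel) and of another probe set of the same cluster (right), 1 point per array, for lines with the member's signal in blue and lines without it in red; bars are means. For Zm.17082, Zm.4611 and Zm.2319 the second probe set read alike in both sets of lines, for Zm.13845 it was lower in RIL39, and for Zm.3284 and Zm.17339 it was near the floor in the lines without the member.

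In clusters Zm.3284 and Zm.17339 a probe set that is no member followed the members. In cluster Zm.3284, missing in RIL39 and RIL71, this was Zm.3284.1.A1_at, with 7.14 to 8.06 in the lines with signal and 2.27 to 3.37 in RIL39 and RIL71. The last probe set of the cluster, Zm.3284.2.A1_at, overlapped, with 3.77 to 4.97 in the lines with signal and 2.46 to 3.77 in RIL39 and RIL71. Over all maize probe sets, 0.262% were higher on every array of RIL118, RIL99 and RIL54 than on any of RIL39 and RIL71. In cluster Zm.1360, missing in RIL39 and RIL118, both probe sets are members, so that their likeness was fixed by the rule (share over all maize probe sets 0.234%, from which nothing is read), with means of 8.50 and 2.07 for Zm.1360.1.S1_at and of 8.36 and 2.42 for Zm.1360.1.S1_x_at in the lines with and without signal. In cluster Zm.17339, missing in RIL71 and RIL54, Zm.17339.1.A1_a_at ran from 5.68 to 8.58 in the lines with signal and from 2.40 to 2.62 in RIL71 and RIL54 (share over all maize probe sets 0.103%). In 5 further members every other probe set of the cluster was below 3 on all arrays. For Zm.19147.2.S1_a_at, with signal in RIL71 only, these include Zm.19147.2.S1_at and Zm.19147.2.S1_x_at, of the same sequence and strand. They averaged 1.94 and 2.15 in RIL71, where the member averaged 8.15.

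To see whether the lines also differ on arrays that did not choose the division, the rule was applied at 1 stage and read at the other. The test used asks for any difference among the lines, not for the chosen division. At emerging tassel alone, 87 probe sets met the rule. At early silking, 81 of these 87 differed among the 5 lines by limma's moderated F test with Benjamini-Hochberg adjustment, against 24.2% of all tested probe sets. The lines with signal were higher than the lines without by a median of 5.78 at early silking, and the sign was turned in 2 of the 87. At early silking alone 89 met the rule, of which 88 differed among the lines at emerging tassel, against 36.7% of all tested probe sets, with a median difference of 5.28 and the sign turned in 2. The 52 met it with the same division at both stages, as their rule requires, so their calls are no independent reading. This leaves 35 for tassel and 37 for silking. Every probe set not called was among these. The F test gave them an adjusted p of 0.114 to 0.978 at early silking and of 0.222 at emerging tassel. Both counts, 81 and 88, moved by no more than 1 in the fits that left out an array.

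Of the rows that met the rule at 1 stage only, 5 have a listed gene. At emerging tassel, rip2, a ribosome-inactivating protein (gene 541814, chromosome 7), had signal in RIL39 (7.67 and 7.07) and RIL71 (8.82 and 7.22) and at most 2.86 in the other lines. At early silking rip2 read 6.60 and 4.52 in RIL39 and 5.12 and 4.91 in RIL71, still above the other lines (at most 2.18). LOC541679 (gene 541679, chromosome 2) had tassel signal in RIL71 only (6.90 and 6.26), with 3.83 and 4.82 there at early silking and at most 2.75 in the other lines on any array. A second probe set of that gene, of the other strand, stayed between 1.85 and 1.90 on all arrays.

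b3gat3 (gene 606447) had signal in RIL99 at emerging tassel (7.90 and 7.43) but not at early silking (2.55 and 2.995), and no more than 2.33 in the other lines. At early silking, asn1, an asparagine synthetase (gene 542435, chromosome 9), had signal in RIL39 only (7.75 and 7.82, and 7.03 and 5.88 at emerging tassel). The other lines were at 2.75 or below at silking and reached 3.63 (RIL71) and 4.02 (RIL54) at tassel. The second asn1 probe set, Zm.2073.2.S1_a_at, did not show this, at 2.25 to 2.27 in RIL39. Its highest values were 5.35 in RIL71, 5.34 in RIL118, 5.69 in RIL54 and 2.26 in RIL99. RIL39, the line with signal at the first probe set, was thus at the floor at the second. The soluble acid invertase ivr2 (gene 542324, chromosome 5) met the rule at early silking, with 6.86 to 7.71 in RIL39, RIL71 and RIL118 and 1.88 to 2.68 in RIL99 and RIL54. At emerging tassel it was high in all lines, so its silking division is one of stage as well as line.

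At looser limits, with each line below 4 or above 5 on all its arrays, 109 probe sets divided the lines, including all 52. The added ones include 4 with a listed gene. pr5, a pathogenesis-related protein of the thaumatin type (gene 542720, chromosome 1), ran from 8.32 to 11.38 in RIL118 and from 2.13 to 3.64 in the other lines. Its 4 values in RIL118 were 8.32 and 11.38 at early silking and 9.52 and 11.34 at emerging tassel, and each was above every array of the other lines. aox1, an alternative oxidase of the mitochondrion (gene 542073, chromosome 5), ran from 5.73 to 6.25 in RIL54 and from 2.54 to 3.44 elsewhere. maf1 (gene 541767, chromosome 9) averaged 7.92 ± 0.23 in RIL39, RIL118 and RIL54 (SD, n = 12) and 3.04 ± 0.42 in RIL71 and RIL99 (SD, n = 8).

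The remaining gene, his1, a linker histone of the H1 type that binds DNA between nucleosomes (gene 542385, chromosome 5), again had probe sets that disagreed. Zm.6393.2.S1_x_at ran from 8.30 to 10.44 in RIL39, RIL118 and RIL99 and from 3.50 to 3.62 in RIL71 and RIL54. Zm.6393.1.A1_x_at, listed for the same gene, averaged 7.61 in RIL39, 8.69 in RIL118 and 7.85 in RIL99, and 6.92 in RIL71 and 6.72 in RIL54. RIL71 and RIL54, near the floor at the first probe set, thus had signal at the other, though with lower means than RIL39, RIL118 and RIL99. Whether that signal comes from his1 alone was not tested. Of the remaining 4 probe sets listed for his1, 3 stayed near the floor on all arrays and Zm.6393.4.S1_x_at ran from 2.90 to 8.05.

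**Figure D4:**
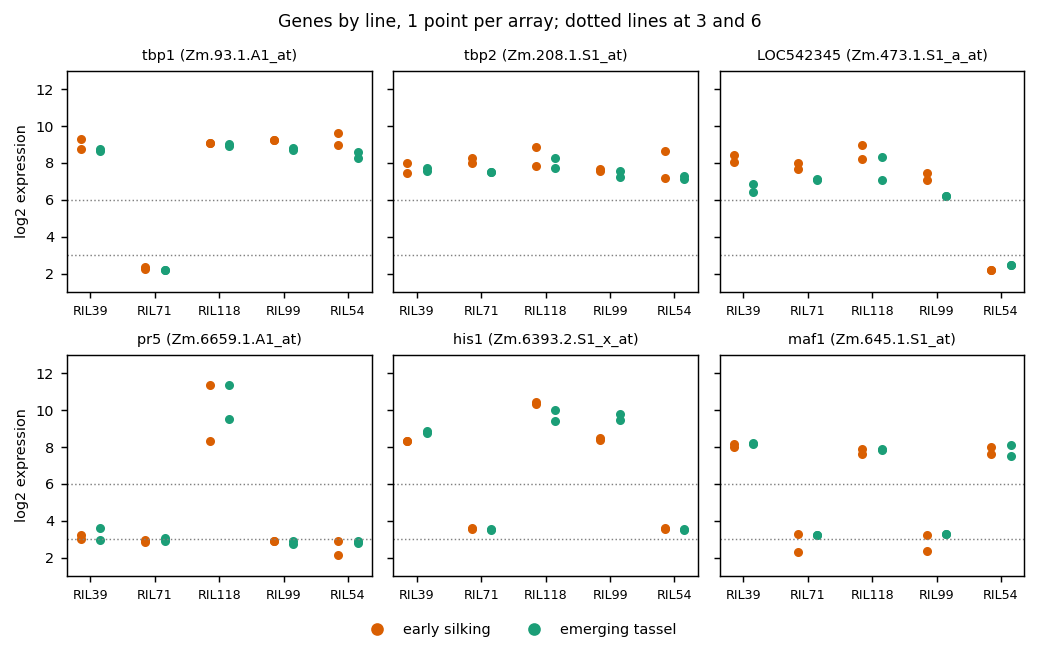
Log2 expression (vertical axis) of 6 probe sets by line (horizontal axis), 1 point per array, early silking in orange and emerging tassel in green, with dotted lines at the limits of 3 and 6. tbp1 was near the floor in RIL71 and LOC542345 in RIL54, tbp2 had signal in all lines, and pr5, his1 and maf1 divided the lines only at the looser limits.

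The change between stages was tested in the lines that had the signal, with limma across all 11033 tested probe sets. The rule did not use this contrast, though it keeps only probe sets that stay above 6 at both stages. The RNA amount ran with stage in RIL71, RIL118, RIL99 and RIL54, where both silking arrays had less than both tassel arrays. In RIL54 it was 65.5 and 81.3 ng at silking and 123 and 417 ng at tassel. A stage change in these lines thus cannot be fully told apart from one of RNA amount. A call was a limma adjusted p below 0.05. RIL39 had 8 of its 25 members called (32%), 6 higher and 2 lower at early silking, against 27.1% of all tested probe sets (15.8% higher, 11.4% lower) and 24.7% of those above 6 on its 4 arrays. For RIL71 it was 9 of 20 (45%), 5 higher and 4 lower, against 32.8% (19.5% higher, 13.3% lower) and 30.6%. For RIL118 it was 9 of 29 (31%), each of them higher, against 11.7% (6.57% higher, 5.1% lower) and 10.1%. RIL99 had 16 of 26 called (61.5%), 13 higher and 3 lower, against 45.2% (27.3% higher, 17.9% lower) and 43.3%. RIL54 had 12 of 23 called (52.2%), 10 higher and 2 lower, against 36.9% (22.1% higher, 14.9% lower) and 34.6%. In RIL39 and RIL71 the members' share was not above that of all tested probe sets in every fit. With trend and robust eBayes it was 16% against 27.5% in RIL39 and 30% against 33% in RIL71, and with array weights 44% against 46.1% in RIL39 and 25% against 28.5% in RIL71. In RIL39 it was also 24% against 24.2% without RIL99 early silking replicate 1 and 24% against 24.1% without replicate 2. With the RNA amount as a covariate, RIL54 had 8 of 23 called (5 higher and 3 lower), or 34.8% against 18.6%. The counts were then 6 in RIL39 (24% against 21.5% of all tested probe sets) and 7 in RIL71 (35% against 23.7%). They were 6 in RIL118 (20.7% against 7.14%) and 15 in RIL99 (57.7% against 37.5%). The difference between members and other probe sets was not tested. Members draw part of their spread from lines at the floor, which probe sets with signal in all lines do not. A higher share of calls among members cannot be told apart from this property of the fit, so no excess is read. The members' median change lay between 0.20 (RIL39) and 0.58 (RIL99), whereas that of all probe sets above 6 in the same line lay between 0.07 and 0.15.

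Single arrays carried part of these counts. In each fit named here the called share of all tested probe sets in that line fell as well, so the drop is not particular to the members. In RIL118 the count was 1 without early silking replicate 2 and 4 without emerging tassel replicate 1. It was 5 in RIL54 without early silking replicate 1, 5 in RIL71 without emerging tassel replicate 1, and 4 in RIL39 without either emerging tassel array.

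Over the lines, 28 members rose in at least 1 line and fell in none (53.8%), 8 fell in at least 1 and rose in none (15.4%), and 16 were called in no line (30.8%). Among all tested probe sets above 6 in the same lines as each member, the shares averaged 25.8%, 15.8% and 58.2%, and the difference was not tested. The pooled spread bears on these shares as well, so no excess is read from them. Of 7 members called in each of the 2 or more lines with their signal, 6 rose and 1 fell (17.6% and 2.94% of the 34 with signal in 2 or more lines, beside 5.69% and 3.53% of all such probe sets). Zm.2668.1.A1_at reached 10.14 in RIL39 and 9.69 in RIL99 at early silking, against 8.87 and 8.72 at emerging tassel. These are changes of 1.27 and 0.98 (SE 0.10 each, limma adjusted p = 9e-06 and 2.81e-05). Zm.2392.1.A1_at rose by 1.84 in RIL99 and by 1.09 in RIL71 (SE 0.14 each, limma adjusted p = 3.58e-06 and 0.000324). Zm.13287.1.S1_at fell by 1.12 in RIL71 and by 0.91 in RIL54 (SE 0.18 each, limma adjusted p = 0.000981 and 0.0021). It fell in RIL39 as well (-0.56, adjusted p = 0.0345), a call lost with trend and robust eBayes (0.0687), with the RNA covariate (0.0748), and without RIL39 early silking replicate 1 (0.231) or emerging tassel replicate 1 (0.127) or 2 (0.142).

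Zm.4611.1.A1_at, the member with signal in RIL99 only, fell there to 8.06 at early silking, against 9.66 at emerging tassel (-1.60, SE 0.18, limma adjusted p = 3.91e-05). The RIL99 arrays read 7.87 and 8.24 at silking and 9.98 and 9.34 at tassel, and the SE also draws on the 4 lines at the floor. Its cluster partner Zm.4611.1.A1_s_at also lay lower at silking, at 6.86 and 7.12 in RIL99 against 9.51 and 8.76 at tassel. The partner likewise ran from 6.82 to 7.43 at silking in the 4 lines where the member had no signal. The largest rise of any member was that of Zm.13864.1.S1_at in RIL39, by 2.23 (SE 0.31, limma adjusted p = 0.000647), named after its value was seen.

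Of the 2 members with a gene, tbp1 was called in RIL54, at 0.86 (SE 0.21, limma adjusted p = 0.00663), a call lost with the RNA covariate (0.0516) and without RIL54 early silking replicate 1 (0.084) or emerging tassel replicate 2 (0.0664). LOC542345 rose in RIL39 by 1.58 (SE 0.34, limma adjusted p = 0.00583; 0.0593 without RIL39 emerging tassel replicate 2) and in RIL99 by 1.08 (adjusted p = 0.0215). The RIL99 call was lost without RIL99 early silking replicate 1 (0.14) or emerging tassel replicate 1 (0.0819) or 2 (0.0745). Whether the change differed among the lines with signal was tested for 18 named members and called for 1. Zm.13306.1.A1_at differed between RIL118 (0.35) and RIL99 (-0.99) with a limma adjusted p of 0.00515, against 7.35% of all tested probe sets called for this pair of lines. The other 17 had an adjusted p of 0.0812 or more, in sets of lines for which 0.906% to 8.27% of all tested probe sets were called. The share of 1 in 18 lies within this range, so no excess is read from the 1 call. In the lines without a member's signal the change between stages ran from -0.35 to 0.42, at the floor of the array.

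**Figure D5:**
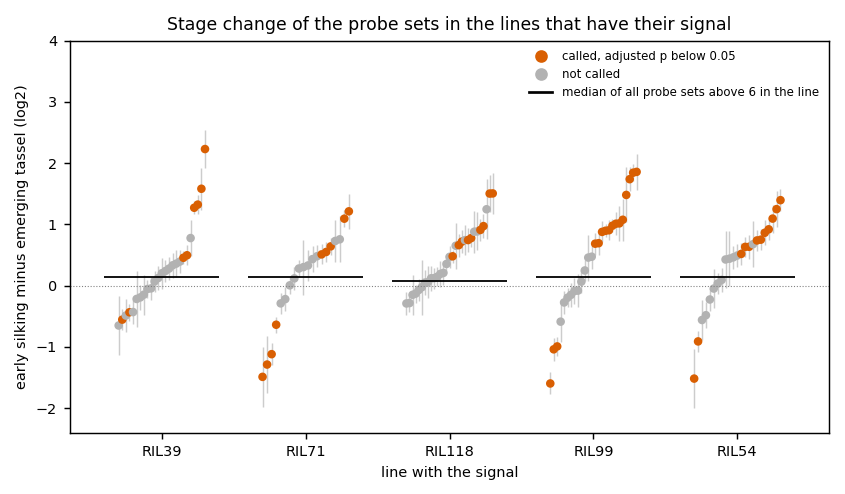
Difference between early silking and emerging tassel on the log2 scale (vertical axis, with the standard error of the fit) for each member in each line that has its signal (horizontal axis). Orange points have an adjusted p below 0.05, and black bars give the median of all probe sets above 6 in that line, which lies between 0.07 and 0.15.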

How the data were processed

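The authors deposited log2 expression per probe set, made with GCRMA, per the submitters' processing notes. GCRMA removes background by probe sequence and scales arrays to each other before it combines the probes of a set. Its version is not given in the sources used here. Of its rows 17555 are maize probe sets, and the 179 controls were not used. 1 probe set is not reported here. The members and lists were chosen with earlier results of these data known. Named were every member with 1 listed gene and, per set of lines without signal, the member with the widest gap. Rows that met the rule at 1 stage or at looser limits were named where the annotation lists 1 gene. The linear model (limma 3.58.1, R 4.3.3) had 10 group means, 1 for each line and stage, and no block. A probe set was tested when above 5 in at least 2 arrays (11033 probe sets), and called at a Benjamini-Hochberg adjusted p below 0.05. Fit and rule were tested on simulated data. Gene names and chromosomes are RefSeq's (Zm-B73-REFERENCE-NAM-5.0), and no sequences were used. Alternatives were other limits, normalizations, filters and variance models, array weights, the RNA amount as a covariate, a replicate block and leaving out each array; those for single members were chosen after seeing the data. The number of arrays limits the precision.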

Additional observations from a re-analysis of the deposited data

Results flagged for a closer look

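Of the 18 named members with signal in 2 or more lines, 1 had a stage change that differed between those lines. That share lies within the 0.906% to 8.27% of all tested probe sets called for such sets of lines, so no excess is read from it. Zm.13306.1.A1_at, with signal in RIL118 and RIL99, was at 0.35 in RIL118 and fell by 0.99 in RIL99 at early silking. The 2 changes differ by 1.35 log2 units (limma adjusted p = 0.00515), against 7.35% of all tested probe sets called for the same 2 lines. The difference stayed called in all 27 other fits, at 1.13 to 1.56.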

How the results depend on the processing

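The rule found 22 probe sets at limits of 2.5 and 7 (all among the 52) and 109 at limits of 4 and 5. Quantile normalization gave 51, of which 50 are among the 52, and centring each array on its median gave 53, of which 51 are. Leaving out 1 array gave 52 to 67, the most without RIL118 emerging tassel replicate 2. For stage calls among members with signal, trend and robust eBayes gave 4 in RIL39 (16% against 27.5% of all tested probe sets). It gave 4 in RIL118 (13.8% against 12%). Array weights gave 5 in RIL71 (25% against 28.5%) and 5 in RIL118 (17.2% against 4.92%). No other change of filter, normalization or covariate moved a count by more than 1.5 times. Leaving out an array gave 4 to 10 in RIL39, 5 to 10 in RIL71, 1 to 11 in RIL118, 11 to 18 in RIL99 and 5 to 13 in RIL54. In the same fits the counts at the other stage ran from 80 to 82 (early silking) and stayed at 88 (emerging tassel), and with the filter above 6 in 4 arrays they were 77 and 84. Whether the shared replicate numbers mark a pairing was not settled. The correlation of replicate differences over 45 pairs of groups ran from -0.436 to 0.512, with 16 above 0.1. With the replicate block the counts were 8 in RIL39, 8 in RIL71, 9 in RIL118, 16 in RIL99 and 12 in RIL54, with 81 and 88 at the other stage. The 25 stage results of named members kept their sign in all 27 other fits each, but 14 lost their call in at least 1 of them, Zm.3284.2.A1_a_at in RIL54 in 14 and Zm.12352.1.S1_at in RIL39, Zm.1360.1.S1_at in RIL71 and Zm.3556.1.A1_at in RIL118 in 6 each. A signal at the floor limits what differences can be read there.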
